A study of Homo sapiens with 12 samples.

Results

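A set of 10 genes that neurons switch on in response to electrical activity were followed in 2 Ewing sarcoma cell lines with the RRM1 gene knocked out, which encodes the catalytic subunit of ribonucleotide reductase. They were ARC, NPAS4, VGF, HOMER1, BDNF, GEM, SIK1, NPTX1, SCG2 and INHBA, chosen by name from the gene symbols of a count table, and 8 of the 10 had a row among its 20771 genes. NPAS4, a transcription factor, and BDNF, a neurotrophin, had no row by symbol or by Ensembl identifier and are reported as not detected. The table holds no gene with a sum under 21 counts over the 12 libraries, so a gene below that sum would also have no row.

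The groups were EW8-RRM1-KO at 0 h, EW8-RRM1-KO at 48 h, TC71-RRM1-KO at 0 h and TC71-RRM1-KO at 48 h, with 3 libraries each. EW8 and TC71 are Ewing sarcoma lines, tumor cells of bone and soft tissue driven by an EWS fusion protein. In all 4 groups the endogenous RRM1 gene had been disrupted by Cas9, and a codon-optimized RRM1 transgene was carried on a lentiviral vector that is on only with doxycycline. The libraries labelled 0 h came from cells grown with doxycycline, and those labelled 48 h from cells kept for 48 h without it, as the study's methods and legends describe. The time points therefore compare cells that had the transgene on with cells in which it was off. The knockout lines were single-cell cloned, and which clone each library came from is not given in the sources used here. Nothing in the sources says whether the 3 libraries of a group came from separate cultures, and the p-values measure only the spread between these samples, which may be technical.

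Activity-regulated genes are classically induced when calcium entry or cyclic AMP activates kinases that act on the transcription factors CREB and SRF at their promoters. A first wave, the immediate early genes, needs no new protein, and a later wave encodes secreted and synaptic proteins that change how neurons connect. Many of these genes are also induced by growth factors and stress in cells that are not neurons.

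Total counts per library ranged from 18468485 to 35698991, and values are given as CPM, counts divided by the library total and scaled by TMM factors, which adjust for differences in library composition. Of the 20771 genes, 16515 passed the filter on low counts and were tested. The RRM1 row held 9.37, 9.51 and 9.67 CPM in the EW8 libraries at 0 h and 63.9, 72.6 and 74.1 CPM at 48 h. In TC71 it held 15.7, 15.5 and 17.3 CPM at 0 h and 25.7, 26.4 and 24.1 CPM at 48 h. This row was higher in every 48 h library than in any 0 h library of its line (edgeR log2 fold change 2.88 ± 0.07 SE in EW8, adjusted p = 3.37e-27, with 0.65 ± 0.07 for TC71, adjusted p = 2.91e-09). It counts reads assigned to the RRM1 locus, and the transgene has another codon sequence, so the row does not check the removal of doxycycline. Of the 17 neuron markers listed, 11 had a row, with summed levels of 271 to 363 CPM across the 12 libraries. Of these 11, RBFOX3, which marks mature neurons, SNAP25, GAD2 and TUBB3 had group means of 0 to 0.455 CPM. MAP2, NEFM and SYP had 1.78 to 10.1 CPM, SYN1, DLG4 and SLC17A7 had 13.8 to 71.0 CPM, and SYT1 had 195 to 217 CPM. STMN2, NEFL, ELAVL3, ELAVL4, SLC17A6 and GAD1 had no row. The 10 Ewing sarcoma markers, among them CD99 and NKX2-2, all had rows and summed to 2354 to 2684 CPM. In such bulk samples a lower share of cells with a transcript and less of it per cell cannot be told apart.

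Promoter sequences are shown first because CREB acts at a known motif, the cyclic AMP response element (CRE), and VGF and SIK1 were the 2 members with a promoter in the table that matched it or its half-site. The sequences run 5′ to 3′ over 300 bases that end 50 bases after the start site and were read from RefSeq on GRCh38.p14. Of the 8 members with a row, 4 had a promoter in that table: VGF, HOMER1, SIK1 and INHBA. Capitals mark matches to TGACGTCA, the full CRE, or to TGACG, its half-site, on either strand (CGTCA on the strand shown). The VGF promoter is at chr7:101165520-101165819 and the SIK1 promoter at chr21:43427082-43427381, both on the minus strand.

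VGF: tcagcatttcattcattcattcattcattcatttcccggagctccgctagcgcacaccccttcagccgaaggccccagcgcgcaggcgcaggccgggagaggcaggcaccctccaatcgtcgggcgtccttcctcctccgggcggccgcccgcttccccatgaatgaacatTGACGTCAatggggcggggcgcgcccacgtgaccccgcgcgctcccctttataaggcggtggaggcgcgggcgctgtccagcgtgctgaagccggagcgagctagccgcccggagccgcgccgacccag

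SIK1: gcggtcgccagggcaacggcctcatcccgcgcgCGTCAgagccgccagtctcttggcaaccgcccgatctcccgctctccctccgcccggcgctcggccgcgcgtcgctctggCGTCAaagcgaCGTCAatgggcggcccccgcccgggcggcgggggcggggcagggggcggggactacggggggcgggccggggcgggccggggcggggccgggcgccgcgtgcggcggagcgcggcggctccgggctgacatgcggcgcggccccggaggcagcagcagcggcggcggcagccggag

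The VGF promoter held 1 full CRE, which began at position -79 from the start site, and both of its half-site matches lay inside that element. The SIK1 promoter held no full CRE and 3 half-sites, at -217, -137 and -126. Among 34796 promoters of the same length, the full CRE was found in 641 (1.84%) and the half-site in 8523 (24.5%). The AP-1 site TGAGTCA, found in 4.96% of promoters, and the CArG box, the SRF site, found in 1.30%, had no match in any of the 4 promoters. The HOMER1 and INHBA windows held none of these letters. The INHBA window surrounds a start inside the gene, downstream of the 5′ end that GENCODE gives it, so the sequence at that end was not searched. A match is a description of the sequence, and these libraries did not measure binding.

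In EW8, 7 of the 10 genes were higher after 48 h without doxycycline and none was lower. They were ARC, HOMER1, GEM, SCG2, VGF, INHBA and NPTX1, although the call for NPTX1 rested on very few counts. SIK1 did not pass the test, and no member was lower at an unadjusted p below 0.05 or by DESeq2 in either line. The test was edgeR's quasi-likelihood test with Benjamini-Hochberg adjustment over the 16515 genes, and a call needed an adjusted p below 0.05 together with a change of more than 2-fold. By this rule 13.9% of all tested genes were called higher in EW8 and 3.35% lower. In TC71, ARC, SCG2 and VGF were called higher and no member was called lower, where 3.26% of tested genes were called higher and 0.854% lower. These 3 genes were called higher in both lines, as were 2.79% of all tested genes. VGF passed the filter on low counts through its 48 h libraries alone, INHBA through the EW8 libraries at 48 h alone, and NPTX1 through TC71 alone. VGF and INHBA thus could enter the test only by being high at 48 h, and the counts above describe the genes and are not a test of the group.

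**Figure D1:**
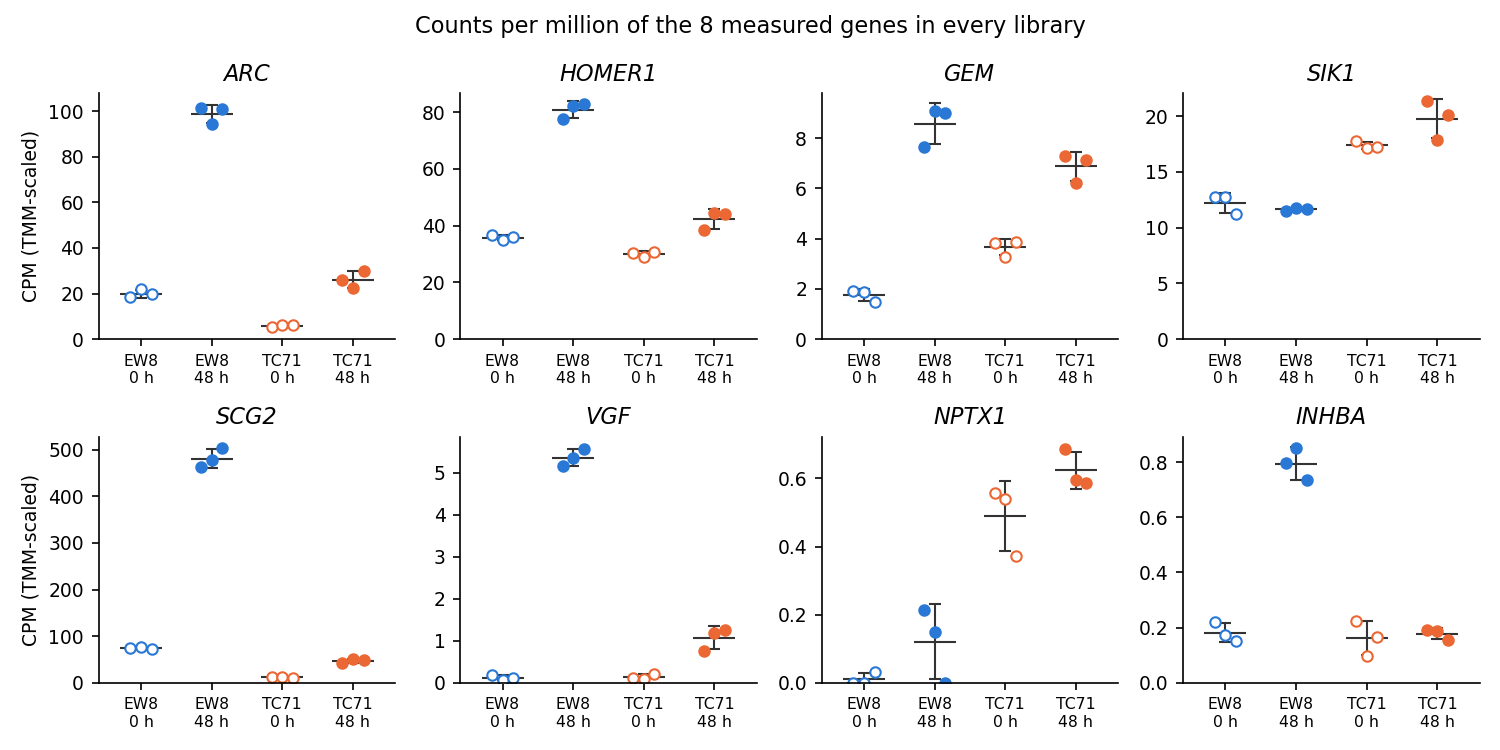
Each panel shows 1 gene, with TMM-scaled CPM on a linear axis from 0 and the 3 libraries of each group as points (blue EW8, orange TC71, open at 0 h, filled at 48 h), and the bars give the mean ± SD. For SCG2 the EW8 means are 74.6 CPM at 0 h and 481 CPM at 48 h, while for SIK1 they are 12.2 and 11.6 CPM.

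Among the secreted members, SCG2 encodes secretogranin II, a protein of dense-core vesicles and the precursor of the peptide secretoneurin. SCG2 lies at chr2:223596940-223602361 (hg38, minus strand). In EW8 it held 74.9, 77.4 and 71.6 CPM at 0 h and 463, 477 and 503 CPM at 48 h. In TC71, SCG2 held 11.4, 12.1 and 10.7 CPM at 0 h and 42.2, 50.7 and 48.7 CPM at 48 h. In both lines every 48 h library was above every 0 h library, and the highest TC71 library lay below the lowest EW8 library. SCG2 rose by 2.69 ± 0.05 (SE) on the log2 scale in EW8 (edgeR, adjusted p = 3.45e-29), and its rise in TC71 was 2.05 ± 0.07 (adjusted p = 1.39e-21). The responses differed by 0.64 ± 0.09 (adjusted p = 3.36e-07), which is below the 2-fold limit for a call. SCG2 alone made up 51.1% to 51.9% of the counts over the 8 measured members in the EW8 libraries at 0 h and 69.4% to 70.4% at 48 h. In TC71 its part went from 15.4–17.6% at 0 h to 30.8–35.3% at 48 h.

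VGF encodes a neurotrophin-inducible peptide precursor that is also stored in dense-core vesicles, and lies at chr7:101162509-101165569 on the minus strand. In EW8 it held 4, 1 and 4 counts in the 0 h libraries and 97, 107 and 114 counts at 48 h. The TC71 libraries held 3, 2 and 5 counts at 0 h and 20, 32 and 41 counts at 48 h. VGF was close to the limit of detection in all 6 libraries at 0 h and above it in all 6 at 48 h. The mean level was 0.118 ± 0.0590 CPM (SD, n = 3) at 0 h and 5.37 ± 0.211 CPM at 48 h in EW8. In TC71 it was 0.139 ± 0.0593 CPM at 0 h and 1.07 ± 0.272 CPM at 48 h. The ratio of the summed counts, scaled for depth, was 43.6 in EW8 (exact 95% binomial interval 22.7 to 96.3, counting error only) and 7.78 in TC71 (4.05 to 16.8). On the log2 scale the fitted change was 5.39 ± 0.28 (SE) in EW8 (edgeR, adjusted p = 5.24e-18), and the TC71 value was 2.91 ± 0.37 (adjusted p = 9.71e-08). Its response was larger in EW8 by 2.48 ± 0.70 (adjusted p = 0.00351). This difference did not pass without the TC71 0 h library of replicate 3, at 2.09 with an adjusted p of 0.0537. VGF had the largest fitted change of the 8 members in both lines, and ranked 43rd from the top of 16515 genes in EW8 and 51st in TC71. It could be ranked only because it was high at 48 h, since it passed the filter on low counts through those libraries alone. Its 0 h side held 9 counts in all in EW8 and 10 in TC71, so the ranks are a description.

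INHBA encodes the beta A subunit of activin A and inhibin A, secreted ligands of the TGF-beta family. It lies at chr7:41667168-41705834 on the minus strand, and 248 of its exon bases are shared with INHBA-AS1 on the opposite strand. The EW8 libraries held 5, 3 and 5 INHBA counts at 0 h, against 15, 17 and 15 at 48 h. The TC71 libraries held 6, 2 and 4 INHBA counts at the start and 5 counts each at 48 h. The EW8 groups did not overlap, whereas the TC71 libraries at 48 h fell within the range of those at 0 h. INHBA rose by 2.12 ± 0.39 (SE) on the log2 scale in EW8 (edgeR, adjusted p = 1.48e-05), and the TC71 value was 0.07 ± 0.52 (adjusted p = 0.937, 95% interval -0.995 to 1.13). The ratio of summed counts was 4.46 in EW8 (2.38 to 8.99) and 1.05 in TC71 (0.457 to 2.45). The responses differed by 2.06 ± 0.69 (adjusted p = 0.0130), and by 1.75 with an adjusted p of 0.0933 without the TC71 0 h library of replicate 1.

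NPTX1 encodes neuronal pentraxin 1, a secreted protein that gathers AMPA receptors at synapses, and lies at chr17:80466834-80477843 on the minus strand. The EW8 libraries held 0, 0 and 1 NPTX1 counts at 0 h, against 4, 3 and 0 at 48 h. Those of TC71 held 15, 11 and 9 at 0 h, against 18, 16 and 19 at 48 h. The EW8 groups overlapped, since 1 of the 48 h libraries was at 0. The TC71 groups did not overlap but lay close together. In EW8 the summed counts were 7 against 1, a ratio of 8.64 with an interval of 1.11 to 390. The EW8 value passed the test at an adjusted p of 0.0327 (edgeR), which became 0.101 and 0.0798 without the 0 h libraries of replicates 1 and 2, and 0.180 and 0.0904 without the 48 h libraries of replicates 1 and 2. In TC71 the log2 fold change was 0.34 ± 0.35 (SE, adjusted p = 0.456).

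BDNF, which acts through the receptor TrkB, would have completed the secreted members. With NPAS4, it is given here only as not detected.

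Among the intracellular members, ARC encodes a protein of the postsynaptic cytoskeleton that promotes the removal of AMPA receptors from the membrane. ARC lies at chr8:142611049-142614479 on the minus strand. In EW8 it held 18.4, 21.9 and 19.7 CPM at 0 h and 101.1, 94.1 and 101.1 CPM at 48 h. In TC71 it held 5.55, 6.13 and 6.21 CPM at 0 h and 26.1, 22.3 and 30.0 CPM at 48 h. Each line went from a tight group of low libraries to a group of high ones with no overlap. ARC rose by 2.31 ± 0.08 (SE) on the log2 scale in EW8 (edgeR, adjusted p = 1.21e-18), and its rise in TC71 was 2.14 ± 0.10 (adjusted p = 1.71e-14). The difference between these responses was 0.17 ± 0.14 (adjusted p = 0.311, 95% interval -0.11 to 0.45). It was 0.29 with an adjusted p of 0.0485 without the TC71 48 h library of replicate 3, 0.07 without that of replicate 2 and 0.10 without the EW8 0 h library of replicate 1, all under the fold limit. ARC was the member whose fitted responses lay closest together on the log2 scale among those called in both lines.

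HOMER1 encodes a scaffold protein that ties metabotropic glutamate receptors to internal calcium stores. Its short, activity-induced form and its long forms share 1 row here, so their levels are not separated. HOMER1 lies at chr5:79372636-79514134 on the minus strand. In EW8 it held 36.7, 34.9 and 35.9 CPM at 0 h and 77.6, 82.2 and 82.9 CPM at 48 h. The TC71 libraries held 30.3, 29.1 and 30.8 CPM at 0 h and 38.4, 44.5 and 44.2 CPM at 48 h. The groups did not overlap in either line, but the step was smaller than for ARC. HOMER1 rose by 1.17 ± 0.06 (SE) on the log2 scale in EW8 (edgeR, adjusted p = 4.06e-19). In TC71 the value was 0.49 ± 0.06 (adjusted p = 2.0e-08), under the fold limit, and the responses differed by 0.68 ± 0.08 (adjusted p = 1.75e-08), also under it.

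GEM encodes a small GTP-binding protein that inhibits voltage-gated calcium channels, and lies at chr8:94249253-94262350 on the minus strand. In EW8 it held 1.93, 1.89 and 1.495 CPM at 0 h and 7.66, 9.07 and 9.01 CPM at 48 h. GEM in TC71 held 3.84, 3.29 and 3.85 CPM at 0 h and 7.29, 6.23 and 7.11 CPM at 48 h. The EW8 libraries were the lowest at 0 h and the highest at 48 h. GEM rose by 2.31 ± 0.14 (SE) on the log2 scale in EW8 (edgeR, adjusted p = 3.50e-16). In TC71 the value was 0.90 ± 0.12 (adjusted p = 2.32e-07), just under the fold limit, with a 95% interval of 0.66 to 1.15. Its response was larger in EW8 by 1.40 ± 0.19 (adjusted p = 2.62e-07).

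SIK1 encodes salt-inducible kinase 1, which acts on CRTC coactivators of CREB and is itself induced by cyclic AMP. It lies at chr21:43414483-43427131 on the minus strand. In EW8 it held 12.8, 12.7 and 11.2 CPM at 0 h and 11.5, 11.7 and 11.7 CPM at 48 h. The TC71 values were 17.8, 17.1 and 17.3 CPM at 0 h and 21.3, 17.9 and 20.1 CPM at 48 h. The EW8 groups overlapped, and the TC71 groups were separated by less than their own width. The log2 fold change was -0.06 ± 0.09 (SE) in EW8 (edgeR, adjusted p = 0.548, 95% interval -0.24 to 0.12). In TC71 it was 0.18 ± 0.07 (adjusted p = 0.0441), well under the fold limit. Over the alternative fits by edgeR or DESeq2, the adjusted p for TC71 ran from 0.00988 to 0.215. The level of SIK1 is uncertain. GENCODE marks a copy at chr21:6111131-6123778 as an artifact of the assembly, and 88.8% of the 100-base windows of the longest SIK1 transcript (4126 of 4648) also occur in it. The copy has no row in the table, so reads that fit both places may have been lost.

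**Figure D2:**
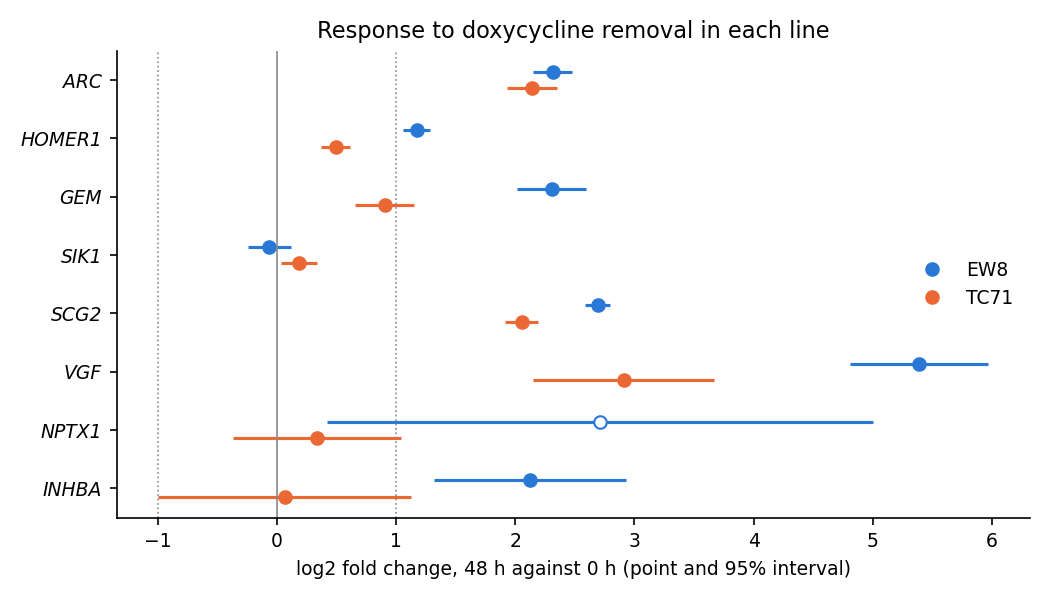
Points give the log2 fold change at 48 h against 0 h in EW8 (blue) and TC71 (orange) with 95% intervals for 8 genes, dotted lines mark the 2-fold limit, and the open point (NPTX1 in EW8) rests on 8 counts in all. The ARC intervals of the lines overlap, while those of GEM, HOMER1, SCG2, VGF and INHBA do not.

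By the call with a fold above 2, the response differed between the lines for VGF, GEM and INHBA, each larger in EW8, where 7.28% of tested genes were called with a larger response in EW8 and 0.981% with a smaller one. INHBA could enter this test only because it was high in EW8 at 48 h, and VGF only because it was high at 48 h, so their values are a description and are not counted as evidence of a difference between the lines. By adjusted p alone, 5 members (VGF, HOMER1, GEM, SCG2 and INHBA) had the larger response in EW8, against 25.7% of tested genes. VGF or INHBA also enter the medians and counts that follow, which therefore describe the members and are not a test. The median log2 fold change over the 8 tested members was 2.31 in EW8 and 0.70 in TC71, beside 0.03 and 0.00 over all tested genes. In EW8, 6 members had no overlap between groups with 48 h higher, against 37.9% of tested genes. In TC71 it was 7 members against 25.9%. By adjusted p alone, 6 members were higher in TC71, against 22.9% of tested genes.

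The lines also differed before doxycycline was removed. At 0 h, ARC and SCG2 were called higher in EW8 (4.77% of tested genes) and GEM and NPTX1 lower (11.9%). ARC was higher in EW8 by 1.74 ± 0.11 (SE) on the log2 scale (edgeR, adjusted p = 3.28e-13) and SCG2 by 2.71 ± 0.07 (adjusted p = 2.10e-26). GEM differed by -1.08 ± 0.16 (adjusted p = 3.81e-07), and by -0.94, under the fold limit, without the EW8 0 h library of replicate 3. NPTX1 had 1 count over the 3 EW8 libraries and 35 over those of TC71, a ratio of 0.0279 with an interval of 0.000688 to 0.166. It passed the filter on low counts through TC71 alone, the line where it was high, so its call at 0 h is a description only. SIK1 and HOMER1 differed by -0.52 ± 0.08 (adjusted p = 9.12e-07) and 0.25 ± 0.06 (adjusted p = 0.000441), both under the fold limit. For VGF and INHBA no difference was detectable at this depth, with 95% intervals of -1.45 to 1.10 and -1.01 to 1.18. The 0 h libraries enter both this comparison and the responses, so both sets of values depend on them.

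To compare levels between genes, CPM were divided by the length of the exons in kilobases. In EW8 at 0 h the order was SCG2 (29.0 CPM per kb), ARC (6.68), HOMER1 (5.90), SIK1 (2.35), GEM (0.669), VGF (0.0441), INHBA (0.0219) and NPTX1 (0.00145). In that group VGF and INHBA overlapped between libraries, and no other neighbours did. At 48 h in EW8, SCG2 stood at 187 CPM per kb, ARC at 33.0 and HOMER1 at 13.3, and GEM (3.24) had passed SIK1 (2.23). VGF at 2.003 CPM per kb was then just below SIK1. The place of SIK1 in each order is uncertain, because reads that also fit its copy may have been lost. In TC71 at 0 h, HOMER1 was first at 4.95 CPM per kb and SCG2 second at 4.43, followed by SIK1 at 3.34 and ARC at 1.99. There NPTX1 and VGF overlapped. At 48 h in TC71, SCG2 led at 18.3 CPM per kb and ARC was second at 8.72, the same first and second genes as in both EW8 groups. INHBA was last in TC71 at both times, at 0.0196 and 0.0214 CPM per kb.

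**Figure D3:**
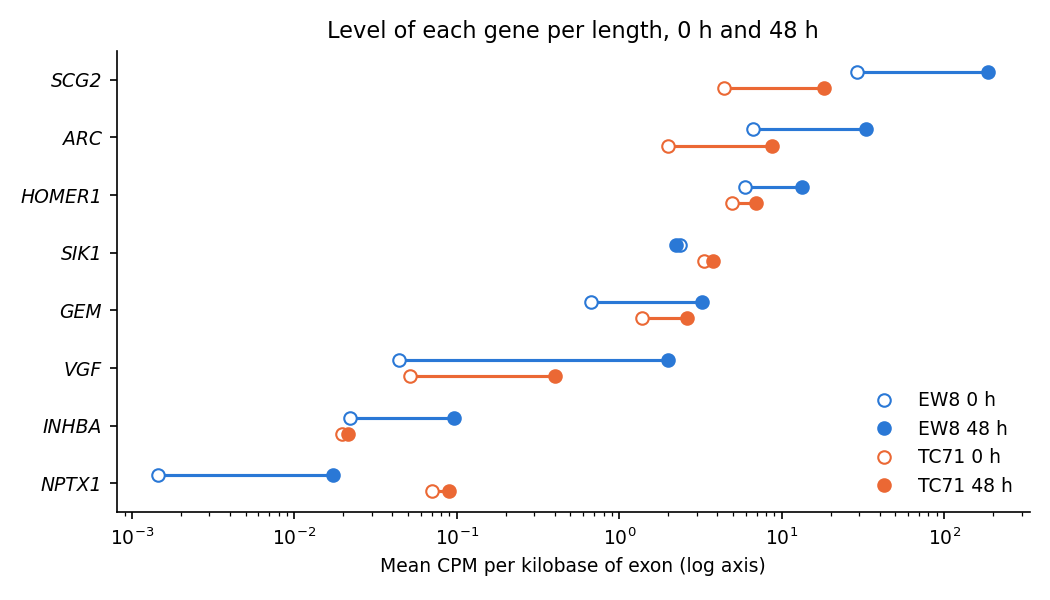
For each gene the mean CPM per kilobase of exon is shown on a log axis at 0 h (open) and 48 h (filled) in EW8 (blue) and TC71 (orange), with a line joining the times. SCG2 lies highest in EW8 at 29.0 and 187 CPM per kb, the SIK1 points nearly coincide, and the NPTX1 point of EW8 at 0 h rests on 1 count.

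Other genes of the same kind were counted from lists written from general knowledge, with earlier results of these data known. The study had already reported FOS, FOSB, JUNB, ATF3 and MAFF as raised in both lines. The list counts are therefore a description and not an independent check. Of 22 other rapid activity-regulated genes, most of them transcription factors, 21 were tested, and 18 were called higher in EW8 (13.9% of all tested genes) and 16 in TC71 (3.26%), with none lower. The 16 called in both lines were FOS, FOSB, JUNB, EGR1, EGR3, EGR4, NR4A1, NR4A3, IER2, KLF2, MAFF, ATF3, BTG2, DUSP1, GADD45B and CCN1. KLF2 had 0 h means of 0.205 CPM in EW8 and 0.257 CPM in TC71, under the 0.412 CPM of the filter on low counts. It thus entered the test mainly by being high at 48 h, and its calls are a description. FOS, a subunit of AP-1, went from 1.16 to 92.6 CPM in EW8 and from 0.900 to 48.5 CPM in TC71 (group means). The median log2 fold change of this list was 2.78 in EW8 and 1.75 in TC71.

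Of 27 other delayed activity-regulated genes, 15 were tested, and 11 were called higher in EW8 (13.9% of all tested genes) and 6 in TC71 (3.26%), with none lower. PLK3, PTGS2, RGS2, RGS4, CREM and PDYN were called in both lines. PTGS2, the inducible cyclooxygenase, rose by 4.28 ± 0.11 (SE) on the log2 scale in EW8 and by 3.11 ± 0.21 in TC71. CREM, which includes the cyclic AMP early repressor ICER, rose by 2.75 ± 0.06 and 1.18 ± 0.06. PDYN, the precursor of dynorphin, rose by 3.37 ± 0.40 and 2.03 ± 0.37. Its 0 h means, 0.158 CPM in EW8 and 0.296 CPM in TC71, were under the 0.412 CPM of the filter on low counts. PDYN thus entered the test mainly by being high at 48 h, and its values are a description. The list's medians were 1.65 in EW8 and 0.60 in TC71.

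The receptors, processing enzymes and relatives of the secreted members were listed too, and NPTX2 and PCSK1 stand in both this list and the delayed one, so that NPTX2 is counted in each. Of 15 tested, NPTX2, CHGB and INHBE were called higher in EW8 and INHBE alone in TC71 (20% and 6.67% of the list, against 13.9% and 3.26% of all tested genes), with medians of 0.33 and 0.06. The EW8 count ran from 3 to 5 with 1 library left out and was 6 with no filter on low counts. INHBE, another activin subunit gene, rose by 4.40 ± 0.22 (SE) on the log2 scale in EW8 (edgeR, adjusted p = 1.10e-18), with a rise of 2.29 ± 0.31 for TC71 (adjusted p = 2.16e-07). At 0 h its means were 0.294 CPM in EW8 and 0.243 CPM in TC71, under the 0.412 CPM of the filter on low counts. INHBE thus entered the test mainly by being high at 48 h, and these values are a description. NPTX2, the closest relative of NPTX1, held mean levels of 2.15 CPM at 0 h and 7.45 CPM at 48 h in EW8, and 39.2 and 59.2 CPM in TC71. Of 16 tested relatives and partners of the intracellular members, CRTC1, CACNB4 and NPAS1 were called higher in EW8 (18.8% of the list, against 13.9% of all tested genes) and none in TC71. By adjusted p alone 9 of the 16 were higher in EW8, where 37.0% of tested genes were, and 4 of the 16 in TC71, which is near the 22.9% of all genes. The largest change in EW8 was that of NPAS1, at 1.61 ± 0.28 (adjusted p = 0.000255).

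CAMK2B, one of the calcium-dependent kinases among 25 tested genes of upstream activity signalling, held at most 19 counts in any library. Of these 25, which also include CREB family members, CAMK2B, NFATC1 and NFATC2 were called higher and CAMKK2 lower in EW8. These shares, 12% higher and 4% lower, lie near those of all tested genes (13.9% and 3.35%), and CAMKK2 went from -1.04 to -0.92, under the fold limit, with total counts alone. NFATC2, a calcineurin-dependent transcription factor, was the gene called in both lines, at 2.31 ± 0.14 (SE, edgeR, adjusted p = 3.75e-16) for EW8 and 1.74 ± 0.62 (adjusted p = 0.0231) for TC71, where its mean was 0.249 CPM at 48 h. The TC71 call was lost without the 0 h library of replicate 1 (adjusted p = 0.114) or 2 (0.103) or the 48 h library of replicate 1 (0.0695), and NFATC2 had too few counts to be tested with TC71 fitted alone. Among neuron markers, MAP2 and TUBB3 of 8 tested were called higher in EW8 (25% of the list, against 13.9% of all tested genes). None was called in TC71, where 3.26% of tested genes were called higher. TUBB3 stood at 1.84 ± 0.61 in EW8 (edgeR, adjusted p = 0.00826), near the floor, with means of 0.0845 CPM at 0 h and 0.350 CPM at 48 h. No library held more than 12 TUBB3 counts. The EW8 count was 4 with total counts alone, and 1 with each line fitted alone or with at least 10 counts in every library. By adjusted p alone, 6 of the 8 were higher in EW8 (37.0% of tested genes), and in TC71 2 were higher and 1 lower (22.9% and 19.2% of tested genes). The medians of these 8 were 0.86 for EW8 and 0.00 for TC71 on the log2 scale. Their summed level went from 271–289 CPM to 345–363 CPM in EW8 and was 306–325 and 319–326 CPM in TC71. Of the epithelial markers, KRT8 and KRT18 of 4 tested were called higher in EW8 (50% of the list, against 13.9% of all tested genes). KRT8 stood at 2.01 ± 0.20 (edgeR, adjusted p = 8.08e-11). The summed level of the epithelial markers in EW8 went from 7.01–9.45 to 21.6–23.3 CPM. In TC71 that sum went from 71.5–73.7 to 99.0–112 CPM. Of the 10 Ewing sarcoma markers, BCL11B was called lower in EW8 (10% of the list, against 3.35% of all tested genes). By adjusted p alone, 6 of the 10 were higher and 4 lower in EW8, where 6103 and 5226 of 16515 tested genes were. BCL11B stood at -1.11 ± 0.05 (edgeR, adjusted p = 7.48e-19). With total counts alone it was -0.98, under the fold limit, and 1 other marker of that list was called higher. Without the EW8 48 h library of replicate 2, 1 marker was called higher and 1 lower. The blood cell markers PTPRC and CD14 had rows but too few counts for a test, with a summed level of at most 0.372 CPM. The part that other cell states had in the members' values was not tested.

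The genes whose log2 CPM followed each member most closely over the 12 libraries are given as a description, since all 12 share the same 2 lines and times. For ARC they were PHLDA2 (Pearson r = 0.994), LINC00941 (0.993) and PCDH7 (0.992). For SCG2 they were PI15 (0.997), SH3RF2 (0.996) and SPRED2 (0.996). For VGF they were KBTBD2, BCL10 and EIF2AK3 (0.992 to 0.994). For HOMER1 they were CCNT1, LRATD2 and ARID4A (0.997 to 0.998). For GEM they were LPP, SLC12A4 and DCHS2 (0.991 to 0.994). SIK1 was followed by LAMA5, SLC25A28 and CHMP1A (0.980 to 0.987), INHBA by CEP95, AFTPH and ZNF260 (0.977 to 0.984), and NPTX1 by LINC02086, NOTUM and PROCR (0.947 to 0.967). No member was among the 3 closest genes of another.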

How the data were processed

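Polyadenylated RNA of the 12 samples was sequenced from stranded libraries. The authors checked reads with FastQC, mapped them to hg38 with STAR, and deposited raw counts per gene as 1 table. The annotation and strand setting of the counting and the rule that removed low genes are not given in the sources used here. Counts were filtered with filterByExpr (minimum count 10, minimum total 15) in edgeR 4.0.16 (R 4.3.3), scaled by TMM and fitted in 1 robust quasi-likelihood model of the 4 groups. Calls required a fold above 2 and a Benjamini-Hochberg adjusted p below 0.05. DESeq2 1.42.0, other scalings, other filters, a replicate block and each library left out were alternatives. The procedure was tested on simulated data. Levels per kilobase used GENCODE 44 exon lengths, and promoters came from RefSeq. Libraries of a group differed by more than sampling noise (chi-square per gene 2.06 to 9.57), so none was merged. Genes named from the other lists were those called in both lines, otherwise the called gene with the largest change in each line, and with none called up to 2 with the highest level. NPTX2, CHGB, CRTC1, CACNB4, CAMK2B, NFATC1, CAMKK2, KRT18 and the neuron markers other than TUBB3 were named after their values were seen. The members and lists were chosen with earlier results of these data known. Intervals on counts cover counting error only, since no molecular identifiers are named for the reads.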

Additional observations from a re-analysis of the deposited data

Results flagged for a closer look

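For 3 genes the response to doxycycline removal differed between the lines by the test of the difference itself, with a fold above 2. VGF rose more in EW8, by 2.48 on the log2 scale. GEM also rose more in EW8, by 1.40. For INHBA the difference was 2.06, with counts of at most 6 in every library outside the EW8 group at 48 h. INHBA passed the filter on low counts through that group alone, so it could be tested only because it was high there, and VGF passed through the 48 h libraries alone. The INHBA and VGF differences are therefore given as values only, while GEM passed the filter in all 4 groups. In TC71, 3 of 3 libraries at 48 h were above every 0 h library for VGF and GEM, and 0 of 3 for INHBA.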

How the results depend on the processing

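All 6 log2 fold changes of ARC, SCG2 and VGF kept their direction and their call in every alternative that could be fitted. Where each library had to hold 10 or more counts, 5 members could be tested (ARC, HOMER1, GEM, SIK1 and SCG2), and 4 were called in EW8 and 1 for the difference between lines. Of the 13210 genes tested there, 1204 were called higher in EW8 and 634 were called with the larger response in EW8. With no fold limit, 6 members were called higher in TC71 (22.9% of tested genes) and 5 had the larger response in EW8 (25.7%). Leaving out 1 library at a time gave 6 to 7 members called in EW8, 3 in TC71, 2 to 4 for the difference and 3 to 4 at 0 h. Of the 16891 to 16963 genes tested in these fits, 2233 to 2429 were called higher in EW8 and 525 to 571 in TC71. For the difference 1086 to 1249 were called larger in EW8, and at 0 h 793 to 830 were called higher and 1939 to 2067 lower in EW8. DESeq2 gave 7, 3, 3 and 4. Of 16515 genes it called 2211 higher in EW8, 479 in TC71 and 1038 for the difference, and at 0 h 765 higher and 1878 lower in EW8. Without the EW8 48 h library of replicate 3, the NPTX1 difference was also called (2.97, adjusted p = 0.0289). Samples with the same replicate number did not deviate together (6 correlations of -0.36 to 0.03), and a fit with the replicate number as a block called 7, 3, 3 and 4 members and changed no member's call. Of 16515 genes that fit called 2290 higher in EW8, 529 in TC71 and 1171 for the difference, and at 0 h 780 higher and 1959 lower in EW8. Values that changed sign were all uncalled. SIK1 in EW8 was 0.064 with total counts alone, a scaling that moved the median of all genes in EW8 from 0.03 to 0.16. With 1 library left out, INHBA in TC71 ran from -0.16 (without 0 h replicate 2) to 0.37. Its log2 ratio between lines at 0 h was -0.048 with total counts and ran from -0.14 (without TC71 replicate 2; -0.06 without EW8 replicate 1) to 0.39. The VGF ratio at 0 h ran from -0.46 to 0.21 (without TC71 replicate 3; 0.05 without EW8 replicate 2). Over these alternatives, the count called in EW8 ran from 2 to 10 for partners of the secreted members (3 in the report), from 2 to 21 for upstream signalling (4) and from 1 to 6 for neuron markers (2), and in TC71 from 4 to 14 for delayed genes (6) and from 0 to 13 for upstream signalling (1, NFATC2, uncalled without the TC71 0 h library of replicate 1 or 2 or the 48 h library of replicate 1, and untested with TC71 fitted alone). The causes were not tested. Depth limits VGF at 0 h, INHBA and NPTX1, where a library held few counts.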
